A study of Mus musculus with 8 samples.

Results

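The 31 genes described here carry fatty acids into mitochondria, oxidise them there, pass on the electrons, handle ketone bodies, or belong to the PPAR receptors and their targets. They are a list of gene symbols whose rule sets no threshold on a measured value, drawn up with earlier results of these data known, and all 31 were found among the 53379 genes listed in the deposited tables. RNA was sequenced from epithelial cells of the distal colon of C57BL/6 mice in 4 groups of 2 libraries. The groups were RORaΔIEC mice, which lack Rora in the intestine (called KO), given DSS; RORaf/f mice with floxed Rora alleles (called WT) given DSS; untreated KO mice; and untreated WT mice. DSS, dextran sulfate sodium, is an agent that injures the colon epithelium. Mice drank it at 2% (w/v) over 5 days and plain water over the next 3 days. The floxed allele is carried by the WT mice too, so WT here means the floxed control rather than an unmodified strain. The Cre driver and the animals' ages were not given in the sources used here. Nothing in the labels says that the 2 libraries of a group came from separate mice, so p-values measure the spread between these libraries, which may be technical.

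Fatty acids are joined to coenzyme A by acyl-CoA synthetases, carried across the mitochondrial membranes as acylcarnitines, and shortened in repeated rounds of dehydrogenation, hydration, a further dehydrogenation and thiolysis. The electrons leave through the electron transfer flavoprotein, and the acetyl-CoA enters the TCA cycle or is made into ketone bodies. Colonocytes are known for oxidising butyrate, a short-chain fatty acid made by gut bacteria, and for making ketone bodies from it. The PPAR nuclear receptors switch on many of these genes together with their partner RXR, and PGC-1α, encoded by Ppargc1a, is a coactivator of the same programme. RORα, the product of Rora, is another nuclear receptor, which binds DNA as a monomer.

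Library totals were 15971642 to 20418466 expected counts, the read counts that RSEM estimates per gene. Rora itself was near the limit of detection, with 8 and 5 counts in DSS-treated KO against 16 and 14 in DSS-treated WT, and 4 and 3 counts in untreated KO against 12 and 6 in untreated WT, so its counts were below those of WT under either condition without reaching 0. A count of 3, the limit that a count of 0 allows, corresponded to 0.150 to 0.191 CPM, the count relative to the library size as scaled by edgeR's TMM factors; such limits cover counting error only. The libraries held strong epithelial signal, with a summed level of 19208 to 22500 CPM over 10 general epithelial markers, while the adipocyte markers Adipoq, Lep, Plin1 and Cfd were at 0 in all 8. The DSS-treated KO libraries differed more from each other than other replicate pairs did: chi-square divided by its degrees of freedom was 5.25 over genes, against 1.29 to 2.24 in the other groups. Over 29 of the 31 genes with enough counts it was 6.26, and 22 of the 29 were lower in replicate 1 than in replicate 2. The tests below used a single spread per gene for all groups. They therefore made no allowance for the larger spread of DSS-treated KO. The DSS-treated KO libraries also had the lowest share of mitochondrially encoded RNA, 5.29% and 4.91%, against 7.23% to 8.05% elsewhere.

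Of the 31 genes, 30 passed the filter on low counts and were tested together with 14991 genes in all; Cd36 did not. A gene is called higher or lower at an adjusted p under 0.05 in edgeR's quasi-likelihood test, with Benjamini-Hochberg adjustment over all 14991 genes, and fold changes are on the log2 scale ± SE. A difference between responses is the log2 fold change with DSS in KO minus that in WT. Between DSS-treated KO and DSS-treated WT, 14 of the 30 were lower and 2 were higher, where 17.7% of all tested genes were lower and 21.3% were higher. In untreated mice the same genotype comparison gave 7 lower and 1 higher, against 6.22% and 9.19% of all genes. DSS lowered 14 and raised 2 of the 30 in KO mice, against 19.8% and 21.7% of all genes, and lowered 12 and raised 2 in WT mice, against 18.3% and 18.9%. The count of lower members was thus above the share among all genes in each comparison, and the count of higher members below it. The median log2 fold change of the 30 was -0.16 between genotypes under DSS, where the median of all genes was -0.01, and -0.10 against 0.01 without DSS. The counts of lower members in untreated mice were 2 to 4 without any one untreated or DSS-treated WT library. The higher ones were 1 between DSS-treated genotypes without DSS-treated WT replicate 1, 1 for DSS in WT without untreated WT replicate 2 or either DSS-treated WT library, and 0 for DSS in KO without either untreated KO library. These 4 comparisons share libraries pairwise, so their values are given side by side and are not independent of each other.

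Most of the differences were small. Among the called members only Pdk4 was at least 2-fold lower in DSS-treated KO than in DSS-treated WT, where 2% of all genes were lower by that much, and Ppara was just short of it. Summed over the 31 genes, the level per transcript length was 3255 and 3409.6 TPM in DSS-treated KO, 3460 and 3405 TPM in DSS-treated WT, 3579 and 3572 TPM in untreated KO, and 3601 and 3652 TPM in untreated WT; TPM is the authors' abundance value, corrected for transcript length. This sum overlapped between the DSS-treated genotypes. Without Ucp2 it did not, at 2733 and 2878 TPM in DSS-treated KO against 2966 and 2914 TPM in DSS-treated WT. Nor did the sum in CPM over the 31 genes, at 3945 and 4123 CPM in DSS-treated KO against 4398 and 4401 CPM in DSS-treated WT. Ucp2 stood at 523 and 532 TPM in DSS-treated KO against 494 and 491 TPM in DSS-treated WT. In CPM its order was reversed, at 436 and 448 CPM in DSS-treated KO against 461 and 456 CPM in DSS-treated WT. Because these are bulk RNA samples, fewer cells of a type and less RNA per cell cannot be told apart. Leaving out replicate 1 of DSS-treated KO, the genotype comparison under DSS gave 12 lower and 4 higher, and leaving out its replicate 2 it gave 18 lower and 3 higher.

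**Figure D1:**
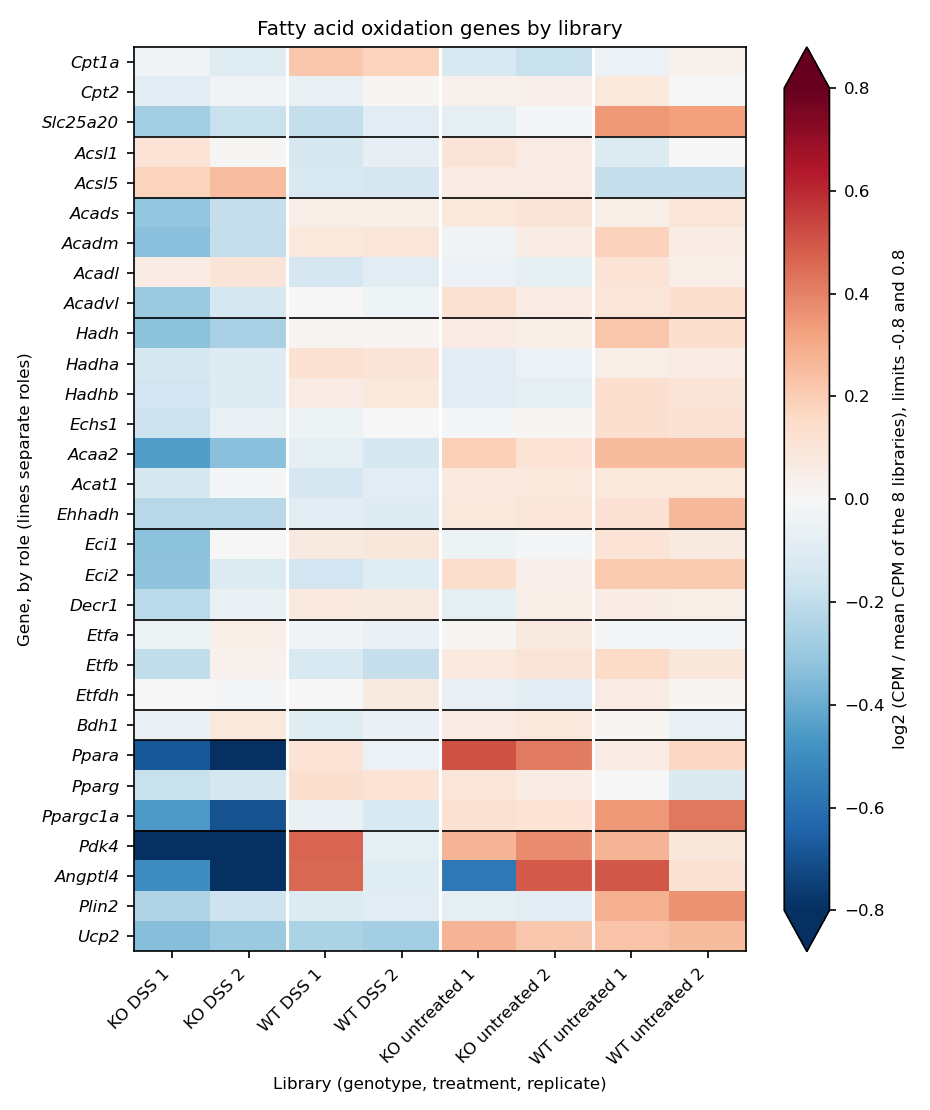
Level of each of the 30 tested genes in each of the 8 libraries, as log2 CPM relative to the gene's own mean over the libraries, with genes in rows by role and libraries in columns. Ppara and Pdk4 were lowest in the DSS-treated KO libraries, where Ppara averaged 3.82 CPM against 7.53 CPM in DSS-treated WT.

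The DSS-treated KO group also differed from DSS-treated WT in markers of other cells. The summed level of 12 neutrophil markers was 315 and 337 CPM in DSS-treated KO, against 53.1 and 57.3 CPM in DSS-treated WT, 86.0 and 86.1 CPM in untreated KO and 99.3 and 97.4 CPM in untreated WT, and all 10 of those tested were higher in DSS-treated KO than in DSS-treated WT. Elane was at 0 in all libraries. The sums in untreated mice were almost wholly Ly6g, with 1348 and 1402 counts in untreated KO and 1982 and 1735 in untreated WT, while S100a8 had 920 and 1019 counts in DSS-treated KO, 28 and 34 in DSS-treated WT and 0 in all 4 untreated libraries. With DSS, 9 of the 10 tested neutrophil markers were higher in WT and 1, Ly6g, was lower, and all 10 were higher in KO. The 15 macrophage markers summed to 167 and 175 CPM in DSS-treated KO, against 80.3 and 79.7 CPM in DSS-treated WT, with 7 of 14 tested higher. Proliferation markers summed to 1297 and 1255 CPM in DSS-treated KO and 586 and 575 CPM in DSS-treated WT, and all 16 were higher. Colonocyte markers summed to 8386 and 8081 CPM in DSS-treated KO and 10030 and 9930 CPM in DSS-treated WT, with 2 of 14 higher and 10 lower. Goblet markers summed to 8305 and 8367 CPM in DSS-treated KO and 10473.4 and 10187.5 CPM in DSS-treated WT, with 0 of 12 higher and 7 lower. Of 11 tested stem and crypt markers 1 was higher and 6 were lower, and of 6 tested fibroblast markers 4 were higher and 1 was lower. The part of these shifts in the results on fatty acid genes was not tested. Proliferation markers also differed without DSS, at 989 and 992 CPM in untreated KO against 694 and 685 CPM in untreated WT.

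Levels between genes were compared in TPM. In untreated WT mice Ucp2, a mitochondrial inner membrane carrier, stood highest at 661 ± 8.86 TPM (SD, n = 2). Hadh, a 3-hydroxyacyl-CoA dehydrogenase, followed at 257 ± 6.13 TPM, then Etfb at 226 and 215 TPM in its libraries. Hadhb at 187 ± 4.37 TPM and Hadha at 183 ± 11.9 TPM, the paired subunits of one complex, did not differ beyond their spread. Acadl followed at 171 ± 1.62 TPM, and Plin2 and Acads did not differ from each other at 164 ± 13.1 and 164 ± 6.41 TPM. At the low end stood Ppara at 4.47 ± 0.919 TPM, Pdk4 at 1.47 and 1.14 TPM in its libraries and Angptl4 at 0.420 ± 0.0849 TPM. Cd36, a fatty acid uptake receptor, was essentially undetected: its counts were 0 and 0 in DSS-treated KO against 2 and 2 in DSS-treated WT, while untreated KO had 2 and 4 and untreated WT 1 and 0.

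The DNA just upstream of the start sites is shown for Acadl, Acads, Plin2 and Pdk4, since receptors of the PPAR and ROR kinds act at such sites. The response of these genes to DSS differed between genotypes. Ppara and Pparg were also among the members with the smallest p-values for that difference in edgeR. Their promoters were searched but are not printed. Sequences are from the RefSeq promoter table on GRCm38.p6, which matched 27 of the 31 genes with 31 promoters of 250 bases before and 50 after the start. They are given 5′ to 3′ on the gene's strand, cut where an annotated exon begins. Capitals mark TAGGTCA or its reverse complement TGACCTA, the core of a ROR element, which holds the AGGTCA letters that PPAR and ROR proteins both recognise.

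Acadl, minus strand, chr1:66863310-66863559: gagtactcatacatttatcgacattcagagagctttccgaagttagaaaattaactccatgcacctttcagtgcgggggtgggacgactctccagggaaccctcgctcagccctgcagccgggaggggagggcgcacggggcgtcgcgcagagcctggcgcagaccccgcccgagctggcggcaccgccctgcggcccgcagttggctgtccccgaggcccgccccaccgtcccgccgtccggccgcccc

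Acads, minus strand, chr5:115119347-115119596: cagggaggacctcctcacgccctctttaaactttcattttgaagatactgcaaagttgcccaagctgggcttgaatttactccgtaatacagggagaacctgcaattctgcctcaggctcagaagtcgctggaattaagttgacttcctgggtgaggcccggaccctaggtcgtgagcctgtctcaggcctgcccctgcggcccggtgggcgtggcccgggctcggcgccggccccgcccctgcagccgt

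Plin2, minus strand, chr4:86670061-86670309: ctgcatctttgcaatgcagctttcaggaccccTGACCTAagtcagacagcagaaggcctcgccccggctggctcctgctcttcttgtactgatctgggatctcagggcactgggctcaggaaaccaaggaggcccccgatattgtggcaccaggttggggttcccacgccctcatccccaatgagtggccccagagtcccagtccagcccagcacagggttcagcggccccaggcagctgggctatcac

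Pdk4, minus strand, chr6:5496310-5496528: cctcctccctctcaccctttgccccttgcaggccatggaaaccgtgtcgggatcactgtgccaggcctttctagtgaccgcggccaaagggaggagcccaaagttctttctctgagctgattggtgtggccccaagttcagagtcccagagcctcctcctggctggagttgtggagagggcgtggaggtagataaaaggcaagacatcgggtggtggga

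A pair of further windows was chosen after the values were seen: Acadvl, the other member promoter with the 7 letters, and the whole interval between the divergent start sites of Hadha and Hadhb.

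Acadvl, minus strand, chr11:70015429-70015678: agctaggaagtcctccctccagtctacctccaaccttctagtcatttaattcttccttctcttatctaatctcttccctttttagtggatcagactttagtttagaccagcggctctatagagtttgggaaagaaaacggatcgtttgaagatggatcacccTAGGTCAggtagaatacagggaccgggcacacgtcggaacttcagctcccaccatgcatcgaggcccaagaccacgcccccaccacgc

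Hadha to Hadhb, plus strand, chr5:30155163-30155247: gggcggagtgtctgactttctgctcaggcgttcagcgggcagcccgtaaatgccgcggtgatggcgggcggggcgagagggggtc

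In Plin2 the 7 letters begin at base -218 from the start and in Acadvl at base -88. TAGGTCA, searched on both strands, was in 2 of the 31 member promoters, or 6.45%, against 2.61% of all 32851 promoters of the same length. AGGTCA, which TAGGTCA contains, was in 8 of 31, or 25.8%, against 16.3% of all promoters. By gene, TAGGTCA was in 2 of 27 members against 2.97% of all genes. AGGTCA was in 7 of 27 against 18.1%. Whether these shares differ from those of all promoters was not tested. The repeat AGGTCANAGGTCA, to which PPAR and RXR bind as a pair, was in 0 of 31 and in 0.04% of all promoters, and the looser AGGNCANAGGNCA was in 0 of 31 and in 0.381% of all. At shares as low as those of these repeats, the search could not tell the 31 promoters from all promoters. Sites outside the windows were not searched. Acads, Acadl and Pdk4 held none of the letters searched for in the printed windows, and their values under the genotypes are given below with those of Plin2 and Acadvl. The Hadha and Hadhb interval is 85 bases long with 69.4% G and C.

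The carnitine shuttle was lower in KO mice in part, and its members did not move together. Cpt1a, the outer membrane transferase that sets the rate of entry, had 409.6 and 391 CPM in DSS-treated KO, 485 and 472 CPM in DSS-treated WT, 383 and 369 CPM in untreated KO, and 404 and 426 CPM in untreated WT. It was highest in DSS-treated WT, and neither pair of genotypes overlapped. Cpt1a was 16.3% lower in DSS-treated KO than in DSS-treated WT (edgeR log2 fold change -0.26 ± 0.04, adjusted p = 0.000325) and also lower without DSS (edgeR log2 fold change -0.14 ± 0.04, adjusted p = 0.0422). DSS raised it in WT mice (edgeR log2 fold change 0.21 ± 0.04, adjusted p = 0.00216), while in KO mice the change was 0.09 ± 0.04, adjusted p = 0.119 in edgeR and not called; the difference between these responses was not called either (edgeR adjusted p = 0.210). The untreated call on Cpt1a was lost without any one of 6 libraries, both untreated WT, both untreated KO and both DSS-treated WT, with values of -0.18 to -0.11.

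Slc25a20, the translocase that exchanges acylcarnitine for carnitine across the inner membrane, followed another course. It had 125 and 134 CPM in DSS-treated KO, 134 and 144 CPM in DSS-treated WT, 145 and 151 CPM in untreated KO, and 194 and 191 CPM in untreated WT. Untreated WT was the only group above the others, and the DSS-treated genotypes overlapped. It was lower in untreated KO than in untreated WT (edgeR log2 fold change -0.38 ± 0.05, adjusted p = 0.000138), and DSS lowered it in KO (edgeR log2 fold change -0.19 ± 0.05, adjusted p = 0.00780) and further in WT (edgeR log2 fold change -0.47 ± 0.05, adjusted p = 5.56e-06). The difference between genotypes under DSS was -0.09 ± 0.05, adjusted p = 0.165 in edgeR and not called. The responses to DSS differed between genotypes (edgeR difference 0.28 ± 0.07, adjusted p = 0.0120), a call lost without untreated WT replicate 1, untreated KO replicate 1 or replicate 1 of DSS-treated WT, with values of 0.23 to 0.34 over the 8 libraries left out; the fall in KO was lost without untreated KO replicate 2. Cpt2, which reforms the acyl-CoA inside, was at 98.8 and 103 CPM in DSS-treated KO, 101 and 106 CPM in DSS-treated WT, 107 and 108 CPM in untreated KO, and 111 and 105 CPM in untreated WT, and no comparison called it.

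The acyl-CoA synthetases differed from each other. Acsl5, found in intestine and liver, had 152 and 159 CPM in DSS-treated KO, 123 and 122 CPM in DSS-treated WT, 140.3 and 140.2 CPM in untreated KO, and 118 and 118 CPM in untreated WT. KO libraries were above WT libraries under either condition, without overlap. Acsl5 was higher in KO with DSS (edgeR log2 fold change 0.34 ± 0.04, adjusted p = 2.73e-05) and without it (edgeR log2 fold change 0.25 ± 0.04, adjusted p = 0.00148), the only one of the 30 called higher in both. DSS raised it in KO (edgeR log2 fold change 0.15 ± 0.04, adjusted p = 0.0135), a call lost without either untreated KO library (0.11 to 0.18) and with effective-length offsets (0.04). On the opposite strand Acsl5 shares 8.31% of its exon bases with Zdhhc6, whose count was 29.3% of that of Acsl5, and the strand setting of the counting was not given in the sources used here. Acsl1, the related synthetase of fat-burning tissues, had 34.8 and 32.3 CPM in DSS-treated KO, 29.4 and 30.7 CPM in DSS-treated WT, 34.6 and 33.6 CPM in untreated KO, and 29.8 and 32.2 CPM in untreated WT, with 0.16 ± 0.07, adjusted p = 0.0789 in edgeR between DSS-treated genotypes and no call in any comparison.

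The 4 acyl-CoA dehydrogenases make the first oxidation of each round and differ in the chain length that they take. Under DSS, Acads, Acadm and Acadvl were lower in KO than in WT and Acadl was higher. Acads, which acts on butyryl-CoA and so on the butyrate that colonocytes burn, had 165 and 179 CPM in DSS-treated KO, 211 and 211 CPM in DSS-treated WT, 217 and 219 CPM in untreated KO, and 211 and 218 CPM in untreated WT. The DSS-treated KO libraries lay below the other 6. It was 18.5% lower in DSS-treated KO than in DSS-treated WT (edgeR log2 fold change -0.30 ± 0.05, adjusted p = 0.00018), and DSS lowered it in KO (edgeR log2 fold change -0.34 ± 0.05, adjusted p = 4.09e-05). In WT mice DSS gave no call (adjusted p = 0.757 in edgeR), and the responses differed between genotypes (edgeR difference -0.32 ± 0.07, adjusted p = 0.00362). Acads lies at chr5:115110299-115119346 on GRCm38, minus strand.

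Acadm, the medium-chain enzyme, had 119.8 and 133 CPM in DSS-treated KO, 160.3 and 162 CPM in DSS-treated WT, 148 and 157 CPM in untreated KO, and 172 and 158 CPM in untreated WT. It too was lowest in DSS-treated KO, which did not overlap with any other group. Acadm was lower in DSS-treated KO than in DSS-treated WT (edgeR log2 fold change -0.35 ± 0.06, adjusted p = 0.000234) and lower in DSS-treated KO than in untreated KO (edgeR log2 fold change -0.27 ± 0.06, adjusted p = 0.00154). The difference between the responses (edgeR difference -0.24 ± 0.08, adjusted p = 0.0480) was lost without either DSS-treated WT library, either untreated KO library, untreated WT replicate 2 or DSS-treated KO replicate 1 (-0.31 to -0.17), and was -0.44 with effective-length offsets.

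Acadl, the long-chain enzyme, went the other way. It had 232 and 239 CPM in DSS-treated KO, 203 and 211 CPM in DSS-treated WT, 216 and 211 CPM in untreated KO, and 241 and 232 CPM in untreated WT. Among DSS-treated mice KO lay above WT, and among untreated mice KO lay below WT. Acadl was higher in DSS-treated KO than in DSS-treated WT (edgeR log2 fold change 0.19 ± 0.04, adjusted p = 0.00318) but lower in untreated KO than in untreated WT (edgeR log2 fold change -0.15 ± 0.04, adjusted p = 0.0341), the only one of the 30 called in opposite directions. DSS raised it in KO (edgeR log2 fold change 0.14 ± 0.04, adjusted p = 0.0154) and lowered it in WT (edgeR log2 fold change -0.19 ± 0.04, adjusted p = 0.00319), and the responses differed (edgeR difference 0.33 ± 0.06, adjusted p = 0.00157). The call between DSS-treated genotypes was lost without DSS-treated WT replicate 1 (0.16), the rise in KO without either untreated KO library (0.12 to 0.17), and the untreated call without any one of the 4 untreated or the 2 DSS-treated WT libraries (-0.18 to -0.12). In TPM the ratio of Acadl to Acadm was 1.77 and 1.68 in DSS-treated KO against 1.04 and 1.16 in DSS-treated WT, while untreated KO had 1.29 and 1.12 and untreated WT 1.26 and 1.36. This ratio was highest in DSS-treated KO, and the untreated genotypes overlapped. Acadl (ENSMUSG00000026003.5) lies at chr1:66830839-66863277 on GRCm38, minus strand.

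Acadvl, the very long-chain enzyme, had 159 and 177 CPM in DSS-treated KO, 195 and 190.1 CPM in DSS-treated WT, 212 and 204 CPM in untreated KO, and 209 and 214 CPM in untreated WT. DSS-treated KO was below the other groups without overlap. Acadvl was lower in DSS-treated KO than in DSS-treated WT (edgeR log2 fold change -0.20 ± 0.05, adjusted p = 0.00681) and than in untreated KO (edgeR log2 fold change -0.31 ± 0.05, adjusted p = 0.000199). The genotype call was lost without DSS-treated WT replicate 1 (-0.18), and the value was -0.12 without DSS-treated KO replicate 1. With effective-length offsets (-0.17) the genotype call was lost as well. The responses differed by -0.18 ± 0.07, adjusted p = 0.0925 in edgeR, which was not called. Acadvl shares 42.9% of its exon bases with Dvl2 on the opposite strand, whose count was 7.38% of that of Acadvl.

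**Figure D2:**
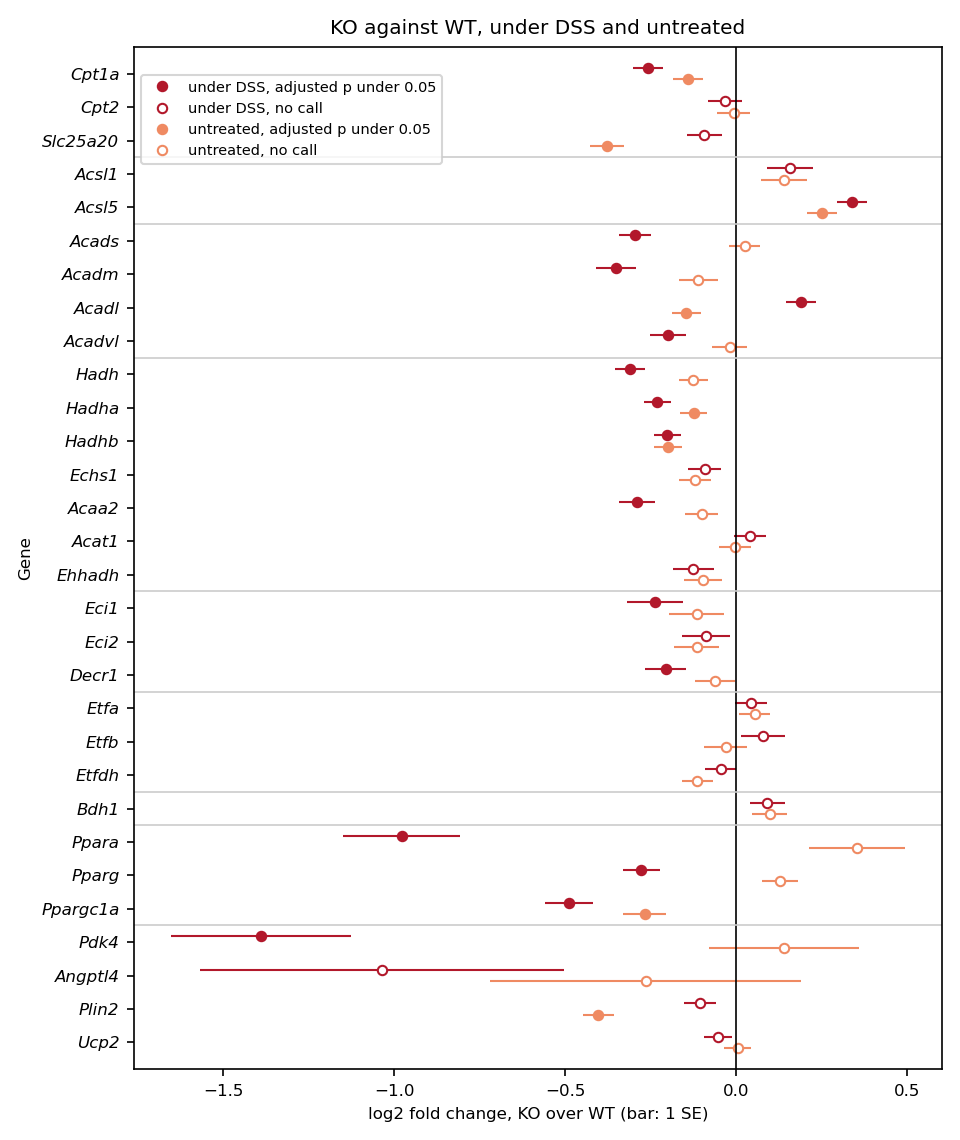
Log2 fold change of the 30 tested genes between KO and WT mice, with DSS and without, bars showing the SE and genes ordered by role. Ppara and Pdk4 were lower under DSS and not called without it, and Acadl changed side between the conditions.

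In the later steps of the round, the genes that were lower in DSS-treated KO were Hadh, Hadha, Hadhb and Acaa2. Hadh, the 3-hydroxyacyl-CoA dehydrogenase of shorter chains, had 233 and 244 CPM in DSS-treated KO, 297 and 296 CPM in DSS-treated WT, 306 and 302 CPM in untreated KO, and 342 and 322 CPM in untreated WT. The 4 groups did not overlap, with DSS-treated KO lowest and untreated WT highest. Hadh was lower in DSS-treated KO than in DSS-treated WT (edgeR log2 fold change -0.31 ± 0.04, adjusted p = 6.17e-05), and DSS lowered it in KO (edgeR log2 fold change -0.35 ± 0.04, adjusted p = 1.75e-05) and in WT (edgeR log2 fold change -0.16 ± 0.04, adjusted p = 0.00914). The fall in WT was lost without untreated WT replicate 1 or either DSS-treated WT library (-0.21 to -0.12). The responses differed (edgeR difference -0.19 ± 0.06, adjusted p = 0.0449), a call lost without untreated WT replicate 2, either untreated KO library or either DSS-treated WT library (-0.23 to -0.14). That call was also lost in DESeq2 (-0.18), without the low-count filter (-0.17) and with effective-length offsets (-0.19).

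Hadha and Hadhb encode the subunits of the trifunctional protein, which carries out the last 3 steps on long chains. Their start sites lie 86 bases apart on opposite strands of chromosome 5. Hadha had 324 and 329.8 CPM in DSS-treated KO, 386 and 381 CPM in DSS-treated WT, 334 and 342 CPM in untreated KO, and 366 and 371 CPM in untreated WT. Hadhb had 211 and 218 CPM in DSS-treated KO, 245 and 248 CPM in DSS-treated WT, 221 and 223 CPM in untreated KO, and 257 and 252 CPM in untreated WT. Both were lower in KO under either condition without overlap, and neither responded to DSS by a called amount. Under DSS the difference was -0.23 ± 0.04, adjusted p = 0.0003 in edgeR for Hadha and -0.20 ± 0.04, adjusted p = 0.00127 for Hadhb; without DSS it was -0.12 ± 0.04, adjusted p = 0.0442 for Hadha and -0.20 ± 0.04, adjusted p = 0.00407 for Hadhb. The untreated Hadha call was lost without any one of the 4 untreated or the 2 DSS-treated WT libraries (-0.15 to -0.11), the untreated Hadhb call without untreated WT replicate 1 or either untreated KO library (-0.22 to -0.19), and the Hadhb call under DSS with effective-length offsets (-0.13).

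Acaa2, the mitochondrial 3-ketoacyl-CoA thiolase, had 88.1 and 95.3 CPM in DSS-treated KO, 114 and 110.0 CPM in DSS-treated WT, 137 and 129.8 CPM in untreated KO, and 144 and 143 CPM in untreated WT. Both DSS groups were below both untreated groups, and DSS-treated KO was lowest. Acaa2 was lower in DSS-treated KO than in DSS-treated WT (edgeR log2 fold change -0.29 ± 0.05, adjusted p = 0.000488), and DSS lowered it in KO (edgeR log2 fold change -0.54 ± 0.05, adjusted p = 1.02e-06) and in WT (edgeR log2 fold change -0.35 ± 0.05, adjusted p = 8.83e-05). The difference of these responses was -0.19 ± 0.07, adjusted p = 0.0770 in edgeR and not called.

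Other genes of these steps were called with DSS and not between genotypes. Ehhadh, a peroxisomal enzyme with hydratase and dehydrogenase activity, had 43.2 and 43.1 CPM in DSS-treated KO, 47.3 and 46.9 CPM in DSS-treated WT, 53.4 and 53.7 CPM in untreated KO, and 54.6 and 60.3 CPM in untreated WT, and DSS lowered it in KO (edgeR log2 fold change -0.31 ± 0.06, adjusted p = 0.000644) and in WT (edgeR log2 fold change -0.28 ± 0.06, adjusted p = 0.00140). Echs1, the short-chain hydratase, had 126 and 137 CPM in DSS-treated KO, 139 and 142 CPM in DSS-treated WT, 141 and 144 CPM in untreated KO, and 156 and 154 CPM in untreated WT. It fell with DSS in WT (edgeR log2 fold change -0.15 ± 0.05, adjusted p = 0.0254), a call lost without any one of the 4 WT libraries (-0.16 to -0.13), and was not called in KO. For both Ehhadh and Echs1, KO libraries lay below WT libraries with and without DSS, by differences that were not called. Echs1 shares 1.71% of its exon bases with Paox on the opposite strand.

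The auxiliary enzymes Eci1, Eci2 and Decr1 prepare unsaturated fatty acids for the same route. Eci1, an enoyl-CoA isomerase, had 33.0 and 41.4 CPM in DSS-treated KO, 43.6 and 44.3 CPM in DSS-treated WT, 40.4 and 41.1 CPM in untreated KO, and 44.7 and 43.5 CPM in untreated WT. Its lower level in DSS-treated KO than in DSS-treated WT (edgeR log2 fold change -0.24 ± 0.08, adjusted p = 0.0316) rested on single libraries: the value was -0.08 without DSS-treated KO replicate 1 and -0.41 without replicate 2, and the call was also lost without either untreated KO or either DSS-treated WT library. DESeq2 (-0.24), effective-length offsets (-0.25) and the DSS-treated groups alone (-0.24) gave no call either. Decr1, the 2,4-dienoyl-CoA reductase, had 62.0 and 69.4 CPM in DSS-treated KO, 75.9 and 75.7 CPM in DSS-treated WT, 68.4 and 74.3 CPM in untreated KO, and 74.7 and 74.4 CPM in untreated WT. It was lower in DSS-treated KO than in DSS-treated WT (edgeR log2 fold change -0.21 ± 0.06, adjusted p = 0.0136), a call lost without either DSS-treated WT library or without DSS-treated KO replicate 1 (-0.13). DESeq2 gave -0.21 for Decr1 without a call. Eci2, the second isomerase, had 38.4 and 44.5 CPM in DSS-treated KO, 43.3 and 44.9 CPM in DSS-treated WT, 53.1 and 49.4 CPM in untreated KO, and 55.6 and 55.5 CPM in untreated WT, and the DSS groups were below the untreated groups. DSS lowered it in KO (edgeR log2 fold change -0.30 ± 0.07, adjusted p = 0.00253), where it was -0.20 without DSS-treated KO replicate 1, and in WT (edgeR log2 fold change -0.33 ± 0.07, adjusted p = 0.00139).

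Of the electron transfer genes, only Etfb was called. Etfa and Etfb encode the flavoprotein that takes electrons from the acyl-CoA dehydrogenases, and Etfdh passes them to ubiquinone. Etfa had 134 and 143 CPM in DSS-treated KO, 136 and 133 CPM in DSS-treated WT, 139 and 145 CPM in untreated KO, and 137 and 137 CPM in untreated WT, and Etfdh had 108 and 107 CPM in DSS-treated KO, 108 and 113 CPM in DSS-treated WT, 104 and 101 CPM in untreated KO, and 113 and 109 CPM in untreated WT. No comparison called Etfa or Etfdh. Etfb had 90.0 and 106 CPM in DSS-treated KO, 94.9 and 90.8 CPM in DSS-treated WT, 109 and 111 CPM in untreated KO, and 115 and 109.8 CPM in untreated WT and was called once, lower with DSS in WT mice (edgeR log2 fold change -0.28 ± 0.06, adjusted p = 0.00386), a call lost with effective-length offsets (-0.25).

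Of the ketone body genes, Bdh1, which interconverts acetoacetate and 3-hydroxybutyrate, had 138 and 152 CPM in DSS-treated KO, 134 and 138 CPM in DSS-treated WT, 149.8 and 152 CPM in untreated KO, and 144 and 138 CPM in untreated WT. The groups overlapped under DSS, and the difference there was 0.09 ± 0.05, adjusted p = 0.184 in edgeR; it was 0.16 and called without DSS-treated KO replicate 1. Acat1, the thiolase that joins and splits acetoacetyl-CoA, had 149 and 161 CPM in DSS-treated KO, 148 and 153 CPM in DSS-treated WT, 172 and 173 CPM in untreated KO, and 172 and 173 CPM in untreated WT. DSS lowered Acat1 in KO (edgeR log2 fold change -0.15 ± 0.05, adjusted p = 0.0162) and in WT (edgeR log2 fold change -0.20 ± 0.05, adjusted p = 0.00405), and the genotypes did not differ by a called amount. The fall in KO was lost without either untreated KO library or DSS-treated KO replicate 1 (-0.10), and the fall in WT without DSS-treated WT replicate 1 and with effective-length offsets (-0.13).

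Among the PPAR regulators, all of Ppara, Pparg and Ppargc1a were lower in DSS-treated KO than in DSS-treated WT. Ppara, the receptor that drives fatty acid oxidation and ketogenesis in fasting liver, was weakly expressed, with 80 and 53 counts in DSS-treated KO, 132 and 121 counts in DSS-treated WT, 165 and 160 counts in untreated KO, and 153 and 147 counts in untreated WT, or 4.60 and 3.03 CPM in DSS-treated KO, 7.93 and 7.12 CPM in DSS-treated WT, 10.5 and 9.79 CPM in untreated KO, and 7.66 and 8.24 CPM in untreated WT. The DSS-treated KO libraries were below the other 6. The level of Ppara was 49.2% lower in DSS-treated KO than in DSS-treated WT (edgeR log2 fold change -0.98 ± 0.17, adjusted p = 0.00039). It was 62.3% lower in DSS-treated KO than in untreated KO (edgeR log2 fold change -1.41 ± 0.16, adjusted p = 7.39e-06), one of 2 members at least 2-fold lower there, where 3.92% of all genes were. DSS gave no call in WT (adjusted p = 0.723 in edgeR), and the responses differed between genotypes (edgeR difference -1.33 ± 0.22, adjusted p = 0.000805). Without DSS the genotype difference was 0.35 ± 0.14, adjusted p = 0.116 in edgeR; it turned to -0.11 with effective-length offsets and was called higher without either DSS-treated KO library. With effective-length offsets the difference between responses was -0.70 and no longer called. Ppara (ENSMUSG00000022383.13) lies at chr15:85734983-85802819 on GRCm38, plus strand.

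Pparg, the receptor that is prominent in colon epithelium, had 59.4 and 60.8 CPM in DSS-treated KO, 73.2 and 72.4 CPM in DSS-treated WT, 71.5 and 69.7 CPM in untreated KO, and 67.3 and 61.9 CPM in untreated WT. DSS-treated WT was the highest group and DSS-treated KO the lowest, and the 4 groups did not overlap. Pparg was lower in DSS-treated KO than in DSS-treated WT (edgeR log2 fold change -0.28 ± 0.05, adjusted p = 0.000883). DSS lowered it in KO (edgeR log2 fold change -0.23 ± 0.05, adjusted p = 0.00294) and raised it in WT (edgeR log2 fold change 0.17 ± 0.05, adjusted p = 0.0199), and the responses differed (edgeR difference -0.40 ± 0.08, adjusted p = 0.00180); it was the only one of the 30 called lower with DSS in KO and higher in WT. The rise in WT was lost without untreated WT replicate 2, where it was 0.11, or either DSS-treated WT library.

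Ppargc1a had 42.4 and 35.9 CPM in DSS-treated KO, 56.2 and 53.7 CPM in DSS-treated WT, 63.5 and 62.9 CPM in untreated KO, and 74.2 and 78.1 CPM in untreated WT. Its 4 groups did not overlap, with untreated WT highest and DSS-treated KO lowest. It was lower in KO with DSS (edgeR log2 fold change -0.49 ± 0.07, adjusted p = 7.51e-05) and without it (edgeR log2 fold change -0.27 ± 0.06, adjusted p = 0.0105), and DSS lowered it in KO (edgeR log2 fold change -0.69 ± 0.07, adjusted p = 1.81e-06) and in WT (edgeR log2 fold change -0.47 ± 0.06, adjusted p = 6.39e-05). The responses were not called different (edgeR difference -0.22 ± 0.09, adjusted p = 0.115), although without DSS-treated KO replicate 1 the value was -0.34. The untreated call was lost without untreated WT replicate 2 or either untreated KO library (-0.31 to -0.23). With effective-length offsets (-0.26) the untreated call was lost as well.

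**Figure D3:**
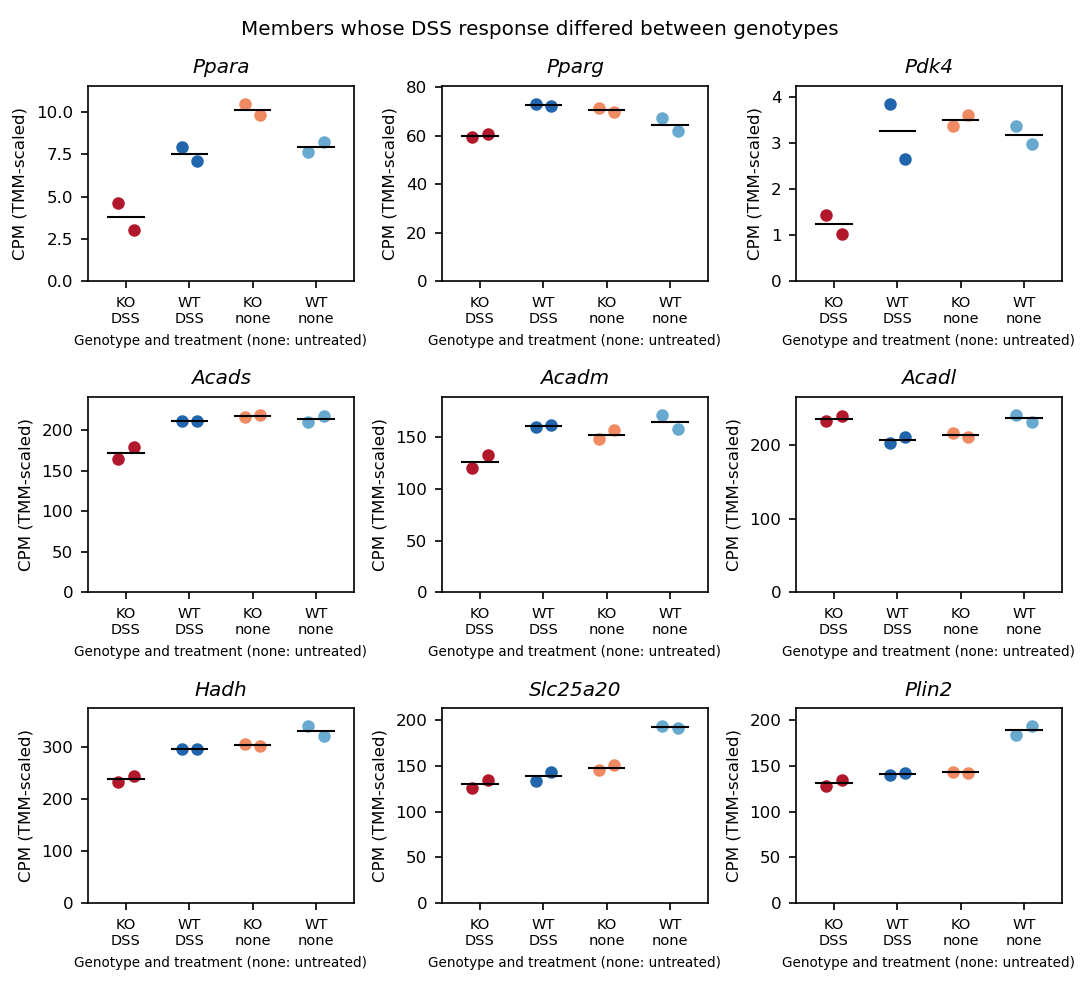
CPM in each library for the 9 genes whose response to DSS differed between genotypes, with DSS-treated groups left of untreated groups in each panel and a line at each group mean. Ppara and Pdk4 were lowest in DSS-treated KO, Acadl stood higher there than in DSS-treated WT, and Slc25a20 and Plin2 were highest in untreated WT.

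The PPAR targets divided. Pdk4, the kinase that shuts off pyruvate dehydrogenase when fat is burned, had few reads, with 25 and 18 counts in DSS-treated KO, 64 and 45 counts in DSS-treated WT, 53 and 59 counts in untreated KO, and 67 and 53 counts in untreated WT, or 1.44 and 1.03 CPM in DSS-treated KO, 3.85 and 2.65 CPM in DSS-treated WT, 3.37 and 3.61 CPM in untreated KO, and 3.35 and 2.97 CPM in untreated WT. The DSS-treated KO libraries were lowest and did not overlap with any other group. Pdk4 was 61.8% lower in DSS-treated KO than in DSS-treated WT (edgeR log2 fold change -1.39 ± 0.26, adjusted p = 0.000785) and 64.5% lower in DSS-treated KO than in untreated KO (edgeR log2 fold change -1.50 ± 0.26, adjusted p = 0.000351). DSS gave no call in WT (adjusted p = 0.924 in edgeR). The responses differed (edgeR difference -1.53 ± 0.34, adjusted p = 0.00640), and in DESeq2 this difference was -1.53 with an adjusted p of 0.0611. Pdk4 (ENSMUSG00000019577.6) lies at chr6:5483351-5496309 on GRCm38, minus strand. Angptl4, a secreted inhibitor of lipoprotein lipase, had 7 and 4 counts in DSS-treated KO, 13 and 9 counts in DSS-treated WT, 6 and 13 counts in untreated KO, and 16 and 11 counts in untreated WT. Its fold change between DSS-treated genotypes was -1.04 ± 0.53, adjusted p = 0.140 in edgeR, an interval too wide at these counts for a difference to be detected.

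Plin2, the coat protein of lipid droplets, had 128 and 135 CPM in DSS-treated KO, 139.9 and 143 CPM in DSS-treated WT, 144 and 142 CPM in untreated KO, and 184 and 194 CPM in untreated WT. Untreated WT stood above the other 3 groups, which were within a narrow range. Plin2 was lower in untreated KO than in untreated WT (edgeR log2 fold change -0.40 ± 0.05, adjusted p = 3.74e-05). DSS lowered it in WT (edgeR log2 fold change -0.42 ± 0.05, adjusted p = 7.50e-06), while in KO the value was -0.12 ± 0.05, adjusted p = 0.0524 and in the genotype comparison under DSS -0.11 ± 0.05, adjusted p = 0.0877 in edgeR, neither of them called. The responses differed (edgeR difference 0.30 ± 0.07, adjusted p = 0.00529), the same form of difference as that of Slc25a20. Ucp2 had 436 and 448 CPM in DSS-treated KO, 461 and 456 CPM in DSS-treated WT, 666 and 638 CPM in untreated KO, and 646 and 655 CPM in untreated WT. DSS lowered it in KO (edgeR log2 fold change -0.56 ± 0.04, adjusted p = 4.16e-08) and in WT (edgeR log2 fold change -0.50 ± 0.04, adjusted p = 2.72e-07), and the genotypes were not called different with or without DSS.

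**Figure D4:**
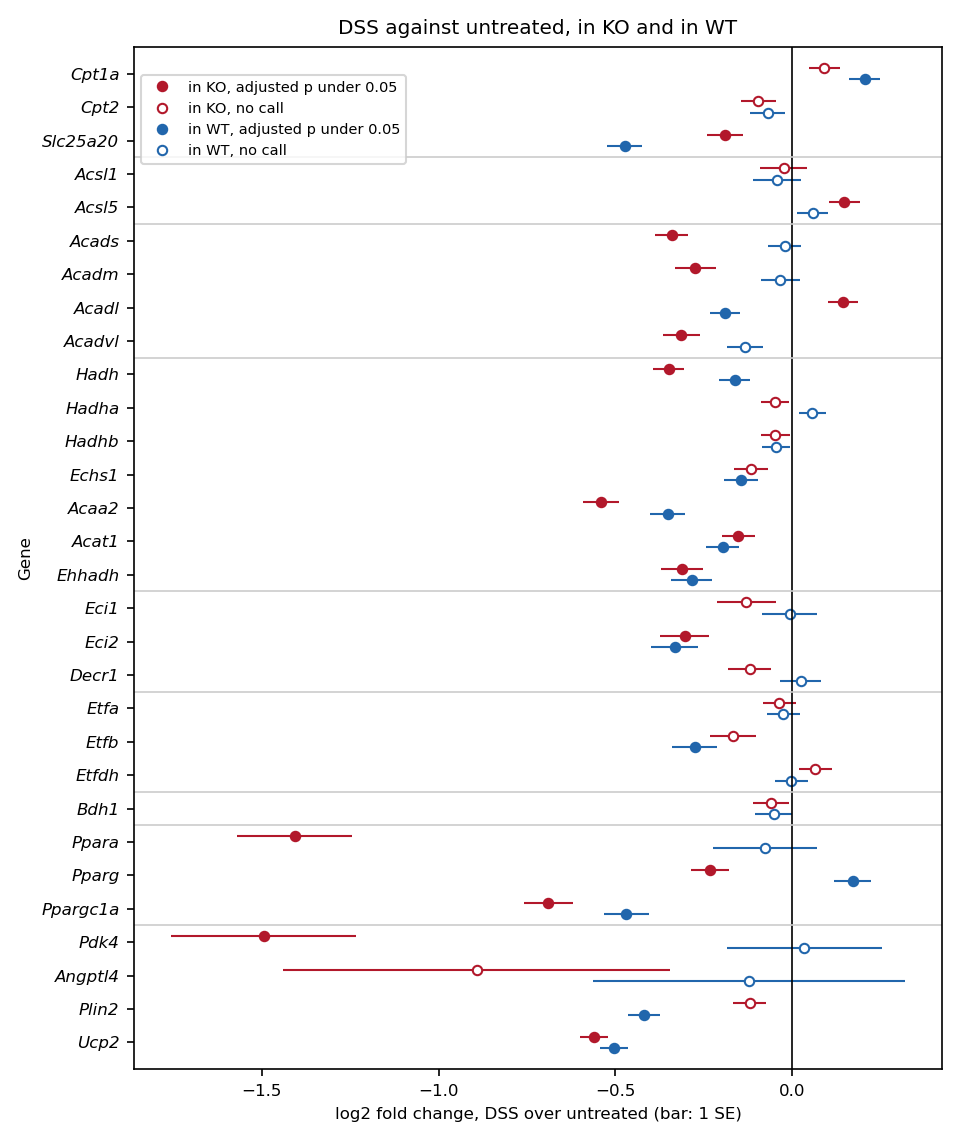
Log2 fold change of the 30 tested genes between DSS-treated and untreated mice, in KO and in WT, bars showing the SE and genes ordered by role. Ucp2, Acaa2 and Ppargc1a were lower with DSS in both genotypes, and Ppara, Pdk4 and Acads in KO but not by a called amount in WT.

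Over the 30 genes, the test of the difference itself called 9, with 6 more negative in KO and 3 more positive, where 10.6% and 10.8% of all genes were called. Acads, Acadm, Hadh, Ppara, Pparg and Pdk4 were the negative ones, and Slc25a20, Acadl and Plin2 the positive ones. Ppara and Pdk4 were at least 2-fold negative, as 2.1% of all genes were. The counts were 7 negative and 4 positive without replicate 1 of DSS-treated KO, and 10 negative and 3 positive without its replicate 2. By genotype, 10 genes were lower only under DSS by their calls and 4 were lower in both conditions. Another 2 were lower only without DSS, and 12 had no call in either. Lower calls made up 17.7% of all genes under DSS and 6.22% without it. The share of all genes with each pattern was not counted. A call in one condition alone is not by itself a difference between conditions.

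Around these genes, lists of related pathways were counted in the same test. Of all genes, 17.7% were lower and 21.3% higher between DSS-treated KO and DSS-treated WT. For the difference between responses, 10.6% of all genes were called negative and 10.8% positive. Between DSS-treated KO and DSS-treated WT, 12 of 26 other genes of mitochondrial beta-oxidation were lower and 2 were higher, with a median of -0.22. Pcca and Pccb, the subunits of propionyl-CoA carboxylase that handles odd chains, averaged 37.4 against 51.9 CPM and 148 against 188 CPM in DSS-treated KO and DSS-treated WT (edgeR log2 fold change -0.47 ± 0.06, adjusted p = 1.41e-05 and -0.35 ± 0.04, adjusted p = 2.27e-05). Of peroxisomal genes 7 of 21 were lower and 1 was higher, with Cat, or catalase, at 58.5 against 85.6 CPM (edgeR log2 fold change -0.55 ± 0.05, adjusted p = 1.13e-06) and Acaa1a, a peroxisomal thiolase, at 121 against 147 CPM (edgeR log2 fold change -0.29 ± 0.05, adjusted p = 0.000173). Of 28 PPAR regulators and partners 16 were lower and 4 were higher; among them Rxra, the PPAR partner, had -0.33 ± 0.05, adjusted p = 0.00019 in edgeR, and Lpin1, a phosphatidate phosphatase and coactivator, had -0.71 ± 0.10, adjusted p = 6.61e-05. Of 21 other PPAR targets 11 were lower and 4 higher. These included Lpl, the lipoprotein lipase that Angptl4 inhibits, lower in DSS-treated KO (edgeR log2 fold change -1.50 ± 0.12, adjusted p = 1.85e-07), and G0s2, an inhibitor of lipolysis that is also a neutrophil and cell cycle gene, higher at 7.89 against 1.25 CPM (edgeR log2 fold change 2.65 ± 0.23, adjusted p = 5.51e-07). The summed neutrophil markers were higher in the same libraries, and their part in the G0s2 value was not tested. Lpl and G0s2 stand in more than 1 list. The PPAR regulators and partners called lower numbered 8 without DSS-treated WT replicate 1 and 10 without DSS-treated KO replicate 2, and those called higher 2 without either DSS-treated WT library or DSS-treated KO replicate 2; the other PPAR targets called higher were 2 without replicate 1 of DSS-treated WT or replicate 2 of DSS-treated KO.

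Downstream of beta-oxidation, calls in the respiratory chain list were in the higher direction. Of 22 nuclear respiratory chain genes 9 were higher and 0 were lower in DSS-treated KO than in DSS-treated WT, with Ndufb8 of complex I at 145 against 126 CPM (edgeR log2 fold change 0.20 ± 0.05, adjusted p = 0.00596, not called without DSS-treated WT replicate 1). The difference of responses was positive for 10 of the 22 and negative for none, with Cox5b of complex IV at 0.30 ± 0.07, adjusted p = 0.00758 in edgeR, not called without DSS-treated WT replicate 1. These counts rested on single libraries: under DSS they were 0 and 3 without replicates 1 and 2 of DSS-treated WT, 4 without either untreated KO library, and 19 and 3 without replicates 1 and 2 of DSS-treated KO. For the responses they ran from 0 without DSS-treated WT replicate 1 to 20 without DSS-treated KO replicate 1, and were 1 to 6 without any other of the remaining libraries. Of 18 TCA cycle genes 5 were higher and 1 was lower, a share of higher calls near the 21.3% of all genes. Without DSS-treated KO replicate 1 the higher ones were 9, without its replicate 2 they were 3, and without DSS-treated WT replicate 1 or 2 they were 2 or 1. Mdh2, the malate dehydrogenase, had 0.26 ± 0.04, adjusted p = 0.000272 in edgeR.

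The kinases that act on pyruvate dehydrogenase beside Pdk4 did not all follow it. Pdk2 averaged 36.5 against 54.4 CPM in DSS-treated KO and DSS-treated WT and was lower (edgeR log2 fold change -0.58 ± 0.05, adjusted p = 1.41e-06). Pdk1 averaged 108 against 82.2 CPM and was higher (edgeR log2 fold change 0.39 ± 0.05, adjusted p = 2.34e-05), and its response to DSS was more positive in KO (edgeR difference 0.58 ± 0.07, adjusted p = 6.69e-05). Of the 13 genes in that list 6 were higher and 2 lower. Of 19 genes of fatty acid synthesis 4 were higher and 4 lower, near the 21.3% and 17.7% of all genes. Elovl6, an elongase, was at 87.7 against 121 CPM (edgeR log2 fold change -0.47 ± 0.05, adjusted p = 3.01e-06). Scd2, a desaturase, was at 1621 against 1338 CPM (edgeR log2 fold change 0.28 ± 0.04, adjusted p = 4.07e-05). Among 19 genes of fatty acid uptake, activation and carnitine 7 were lower and 5 higher, among them Acss1, the mitochondrial acetyl-CoA synthetase, at 89.6 against 128 CPM (edgeR log2 fold change -0.52 ± 0.04, adjusted p = 5.45e-07), and Got2, the mitochondrial aspartate aminotransferase, at 107 against 77.3 CPM (edgeR log2 fold change 0.47 ± 0.05, adjusted p = 2.33e-06). Log2 fold changes of these 19 genes ran from -1.71 to 0.85, so others in the list moved further. Without DSS-treated WT replicate 1 the higher genes numbered 2 in the pyruvate dehydrogenase list and 3 in the uptake list, and the lower genes of fatty acid synthesis 1; without DSS-treated WT replicate 2 the higher genes of fatty acid synthesis were 2.

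**Figure D5:**
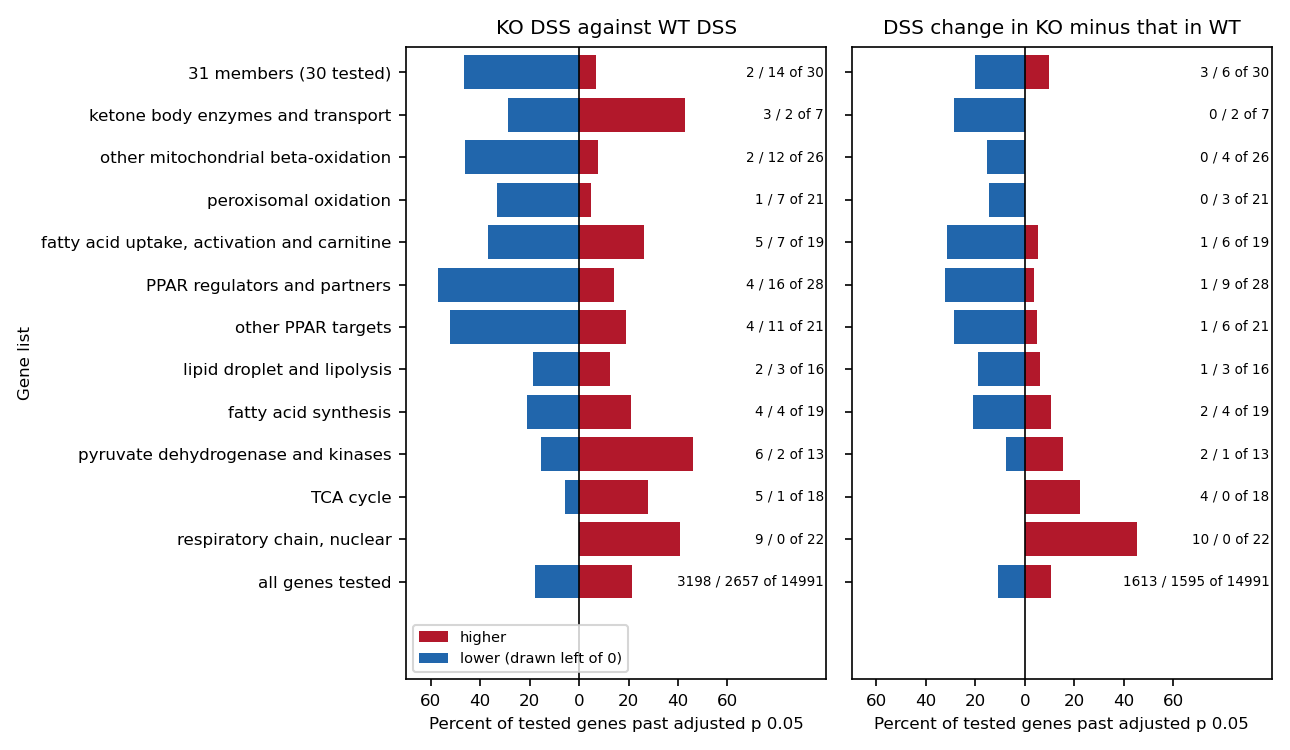
Percent of the tested genes of each list called higher (right of 0) and lower (left of 0), with the counts printed beside the bars, for DSS-treated KO against DSS-treated WT and for the difference between the responses to DSS; the bottom row is all genes tested. Between DSS-treated genotypes, PPAR regulators and partners had the highest share of lower calls among the lists drawn, 16 of 28, and the pyruvate dehydrogenase list the highest share of higher calls, 6 of 13; for the difference between responses, positive calls were most frequent among nuclear respiratory chain genes, 10 of 22.

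Without DSS, 5 of 26 other beta-oxidation genes were lower and 1 was higher in untreated KO than in untreated WT, with a median of -0.12; the lower ones numbered 0 without untreated WT replicate 1 or either untreated KO library and 3 without untreated WT replicate 2 or either DSS-treated WT library. The peroxisomal thiolase Acaa1a was lower (edgeR log2 fold change -0.31 ± 0.04, adjusted p = 0.00032), as was Pdk2 (edgeR log2 fold change -0.36 ± 0.05, adjusted p = 0.000213). The cytosolic acetoacetyl-CoA enzymes of the ketone body list were higher: Acat2, the cytosolic thiolase, averaged 56.5 against 34.7 CPM in untreated KO and untreated WT (edgeR log2 fold change 0.70 ± 0.05, adjusted p = 1.08e-06), and Aacs, acetoacetyl-CoA synthetase, averaged 146 against 105 CPM (edgeR log2 fold change 0.47 ± 0.05, adjusted p = 2.05e-05). Fatty acid synthesis had 6 of 19 higher and 1 lower, including Fasn, the fatty acid synthase, at 339 against 252 CPM (edgeR log2 fold change 0.43 ± 0.06, adjusted p = 0.000175). Between the untreated genotypes, 9.19% of all genes were higher and 6.22% lower.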

How the data were processed

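Expected counts and TPM per gene were deposited by the authors in one table per library, per the file headers. Tools named in the submitters' processing notes are RSEM 1.3.0, STAR 2.5.3a and DESeq2 1.18.1, with mm10 as genome build; the strand setting and annotation release were not given in the sources used here. Expected counts were rounded, filtered (filterByExpr by group, minimum count 10, total 15), scaled by TMM and fitted in edgeR 4.0.16 (R 4.3.3) over all 8 libraries with a mean per group, leaving 4 residual degrees of freedom. TPM was used to compare levels between genes, for the summed level of the 31 genes and for the ratio of Acadl to Acadm. No test used TPM. Alternatives were RLE size factors, no filter, DESeq2 1.42.0, effective-length offsets from the deposited lengths, no mitochondrially encoded genes, a replicate block, fits of the compared groups alone, and each library left out. All 31 genes are named, and of each list up to 3 genes with the smallest p-values per comparison. The 31 genes, the lists and the alternatives were chosen with earlier results of these data known. Gene positions are from GENCODE M21. Library totals of 15971642 to 20418466 set the precision.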

Additional observations from a re-analysis of the deposited data

Results flagged for a closer look

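For 9 of the 30 tested genes, the change with DSS differed between KO and WT mice by a test of the difference itself, the DSS fold change in KO minus that in WT on the log2 scale. The differences were -1.33 for Ppara, -1.53 for Pdk4, -0.40 for Pparg, -0.32 for Acads, -0.24 for Acadm and -0.19 for Hadh. They were 0.33 for Acadl, 0.30 for Plin2 and 0.28 for Slc25a20. Of these 9, the values for Acadm, Hadh and Slc25a20 lost their call when some single libraries were left out, and those for Ppara and Pdk4 rest on fewer than 170 counts per library.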

How the results depend on the processing

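Of 63 called values of the 31 genes, none reversed under the 15 alternatives, 39 kept their call under all of them and 24 lost it under at least 1. RLE size factors and leaving out mitochondrially encoded genes ended no call, DESeq2 ended 11 and effective-length offsets 14; the cause was not tested. Genes lower in untreated KO numbered 7, against 3 with effective-length offsets, 12 with the 4 compared libraries alone and 2 to 9 with single libraries left out. Genes higher there numbered 1, against 2 with the 4 libraries alone and 1 to 2 with libraries left out. With libraries left out, the higher and lower counts were 1 to 4 and 11 to 18 between DSS-treated genotypes, 0 to 3 and 12 to 20 for DSS in KO, 1 to 2 and 9 to 13 for DSS in WT, and 2 to 4 and 4 to 10 for the difference between responses. Higher counts for DSS in WT were 1 under DESeq2, and for DSS in KO 1 under DESeq2 and 1 with effective-length offsets; lower counts of the difference were 3 under DESeq2. The uncalled Ppara value in untreated mice turned from 0.35 to -0.11 with effective-length offsets. Replicate numbers were not shown to pair the libraries, since correlations of same-numbered deviations ran from -0.112 to 0.0772. With a replicate block, the genes lower in untreated KO were 5 and the negative differences 4, the lost calls being Cpt1a at -0.14 and Hadha at -0.13 without DSS and the differences of Acadm at -0.24 and Hadh at -0.19; the block changed no other member call. Over all genes, DESeq2 called 1963 higher and 1471 lower between DSS-treated genotypes, against 3198 and 2657 in edgeR, 668 and 441 against 1378 and 932 without DSS, 2085 and 1764 against 3259 and 2972 for DSS in KO, 1608 and 1412 against 2834 and 2739 for DSS in WT, and 754 and 732 against 1613 and 1595 for the difference. Effective-length offsets gave 786 and 504 without DSS and 882 and 912 for the difference, and the 4 libraries alone gave 1584 lower without DSS. The same alternatives were run on the pathway lists and their named genes, a choice made after seeing the data, and reversed no called gene. Calls that ended under DESeq2 or effective-length offsets are not all listed with their genes above. Depth limited Ppara, Pdk4, Angptl4 and Cd36 most.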

Other observations

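Among genes beside the 31 that had the smallest p-values in their lists, some RNA levels also differed with DSS. In KO mice Oxct1, the enzyme that uses ketone bodies, was lower with DSS (edgeR log2 fold change -0.31 ± 0.04, adjusted p = 2.14e-05), and it was lower in WT too (edgeR log2 fold change -0.43 ± 0.04, adjusted p = 1.50e-06). Acsm3, a synthetase of medium-chain acids, was lower with DSS in KO (edgeR log2 fold change -0.65 ± 0.04, adjusted p = 8.85e-09) and in WT (edgeR log2 fold change -0.57 ± 0.04, adjusted p = 7.66e-08). The nuclear receptors Esrrg and Nr1h3 were lower in KO (edgeR log2 fold changes -1.53 ± 0.12, adjusted p = 1.61e-07 and -1.04 ± 0.10, adjusted p = 9.47e-07) and in WT (edgeR log2 fold changes -1.10 ± 0.11, adjusted p = 2.16e-06 and -0.75 ± 0.09, adjusted p = 1.86e-05). Dgat2, which makes triglyceride, was higher with DSS in KO (edgeR log2 fold change 0.62 ± 0.05, adjusted p = 3.50e-07) and in WT (edgeR log2 fold change 0.65 ± 0.05, adjusted p = 4.45e-07).

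With DSS, 18.3% of all genes were lower and 18.9% higher in WT, and 19.8% were lower and 21.7% higher in KO. Nuclear respiratory chain genes were lower with DSS in WT, 13 of 22 with 0 higher, and in KO 1 was lower and 3 were higher. The WT count was 8 without untreated WT replicate 1 or DSS-treated WT replicate 1. Of 18 TCA cycle genes 5 were lower and 1 higher with DSS in KO, and 11 were lower in WT, with 6 without untreated WT replicate 1 and 7 without DSS-treated WT replicate 1. Pcx, pyruvate carboxylase, was lower in KO (edgeR log2 fold change -0.39 ± 0.05, adjusted p = 3.26e-05) and in WT (edgeR log2 fold change -0.68 ± 0.05, adjusted p = 2.60e-07), with a difference between responses of 0.28 ± 0.07, adjusted p = 0.0152 in edgeR, a call lost without untreated WT replicate 2, either untreated KO library or DSS-treated WT replicate 2, with values of 0.22 to 0.34 over the libraries left out.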
